A study of Rattus norvegicus with 56 samples.

Results

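Slc2a4, Slc2a1, Hk1 and Hk2 encode the transporters and kinases that open glucose metabolism, and their transcripts were followed here in the rat mammary gland. Members were all probe sets whose annotated gene symbol, updated through the Entrez gene ID, is one of these 4 genes. They came to 4 of the 10411 genes with a single symbol on the array. The 4 genes had 5 ordinary probe sets, 2 of them for Slc2a4, and 3 hexokinase control probe sets that the annotation assigns to Hk1, together 8 of 15923. The 56 arrays came from mammary glands of females of the inbred Wistar Furth strain, 12 under what the labels name RXR treatment and 12 labelled control. Neither the labels nor the values say which compound, dose or duration was used, or how old the rats were. Of the treated rats 6 were in diestrus and 6 in proestrus or estrus, and of the controls 9 were in diestrus and 3 were not. Labelled targets of the same rats, each also hybridised singly, were mixed into 6 pools of 2 and 4 pools of 3 in each arm. A pool of all 12 rats of each arm was hybridised 4 times, and rat 3 of each arm was measured on 2 additional arrays.

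Glucose enters cells through facilitative transporters of the Slc2a family, and hexokinases then phosphorylate it, which keeps it inside the cell. Slc2a4 encodes GLUT4, the insulin-responsive transporter of fat and muscle that is stored in intracellular vesicles, whereas Slc2a1 encodes GLUT1, a widespread transporter of basal uptake that mammary epithelium also uses. Hk1 is the broadly expressed hexokinase, and Hk2 is the form typical of insulin-responsive tissues.

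The tissue label was checked against marker genes. Fabp4, a lipid carrier of adipocytes, averaged 12.73 ± 0.18 log2 in controls (SD, n = 12) and Krt8, a keratin of luminal epithelium, averaged 11.19 ± 0.26, so that transcripts of fat and of epithelium were both present. The mean of 24 skeletal muscle markers was 6.19 in controls (range 6.08 to 6.24) and 6.21 in treated rats (6.14 to 6.30), on arrays whose values ran from 4.12 to 14.08. Acta1 and Ckm averaged 5.86 and 6.38 in controls and Myh1 10.86. Of the 24 muscle markers 1 passed the test, Myl1, which was 0.21 higher, beside 18.1% of all probe sets called in either direction. In bulk tissue, fewer cells of a type and less RNA per cell cannot be told apart. A technical score was taken from how repeat arrays of the same target differ, and its mean was -0.62 for treated and 0.62 for control animals (two-sided permutation p = 0.65). Technical replicate 3 of the control pool of 12 stood apart, at -12.4 against 8.4 to 11.1 on the other 3 arrays of that pool.

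Promoters of Slc2a1, Hk1 and Hk2 are shown as a description of sequence. RefSeq promoter sequences (rat build GRCr8) were matched for 3 of the 4 genes, and Hk1 had 2 annotated starts. Each sequence gives the 250 bases before an annotated start, 5' to 3' on the gene's strand. Capitals mark any match, on either strand, to one of the motifs searched. For general promoter elements these were the GC box with the letters GGGCGG, the box named CCAAT after its letters, and the TATA box searched as TATAAA. The E-box was searched with the letters CACGTG. The core of the hypoxia response element was searched as ACGTG, which every E-box of those letters also contains. Nuclear receptor elements were searched by their core AGGTCA and by its direct repeats spaced by 1 and by 4 bases, which contain that core.
Slc2a1, chr5:138002272-138002521, plus strand: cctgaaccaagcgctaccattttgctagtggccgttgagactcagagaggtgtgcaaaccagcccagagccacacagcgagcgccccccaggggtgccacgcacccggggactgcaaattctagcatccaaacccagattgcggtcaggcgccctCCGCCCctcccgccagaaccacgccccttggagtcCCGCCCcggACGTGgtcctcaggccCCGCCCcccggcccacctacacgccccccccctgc
Hk1, chr20:30842073-30842322, minus strand: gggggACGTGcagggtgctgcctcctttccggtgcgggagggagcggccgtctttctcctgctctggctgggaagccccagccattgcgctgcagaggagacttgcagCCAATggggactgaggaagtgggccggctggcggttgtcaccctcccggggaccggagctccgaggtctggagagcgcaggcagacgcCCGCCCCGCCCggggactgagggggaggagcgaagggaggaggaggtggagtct
Hk2, chr4:116841276-116841525, minus strand: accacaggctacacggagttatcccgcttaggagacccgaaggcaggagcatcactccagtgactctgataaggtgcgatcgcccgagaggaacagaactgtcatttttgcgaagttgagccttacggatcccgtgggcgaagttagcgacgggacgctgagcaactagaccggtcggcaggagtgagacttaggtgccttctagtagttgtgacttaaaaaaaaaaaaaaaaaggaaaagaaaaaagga

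The search covered 300 bases, the printed sequence and the 50 bases after the start. The Slc2a1 window held 3 GC boxes, 1 ACGTG, 1 CCAAT and 1 TATAAA, of which the last pair lay after the annotated start. The Hk1 window printed above held 2 overlapping GC boxes, 1 ACGTG and 1 CCAAT. GC made up 68.3% of the Slc2a1 window and 69.3% of this Hk1 window, against a median of 51.7% over all 33469 promoters of the table. Hk2 and the other Hk1 start, at chr20:30874815-30875064, held no match to any of the motifs, and their GC content was 51.0% and 50.7%. Of all promoters 33.1% held GGGCGG, 37.5% CCAAT, 19.3% ACGTG, 16.2% AGGTCA, 14.2% TATAAA and 6.42% CACGTG. The repeats of AGGTCA spaced by 1 and by 4 bases occurred in 0.0538% and 0.00598%. The matches describe letters in these windows only. Which Hk1 start the gland uses, and whether the motifs bear on the members' values, was not tested.

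Treatment was compared with control in the individual rats, the comparison the labels set up. Slc2a4 rose on both of its probe sets, Hk2 rose, Hk1 fell and Slc2a1 did not pass the test. Of the 5 ordinary member probe sets, 4 were called at an adjusted p under 0.05 by limma with Benjamini-Hochberg adjustment, against 18.1% of the 15866 probe sets tested. The 3 that rose stand beside 8.46% of all probe sets called higher, and the 1 that fell beside 9.59% called lower. The median change over all probe sets was -0.00 log2.

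Slc2a4 on probe set 1367989_at ran from 8.60 through a median of 10.23 to 10.52 log2 in the treated rats, and from 7.42 through 8.06 to 8.88 in the controls. All treated rats but 1 lay above the highest control, and the exception was rat 9 at 8.60. The share of all probe sets that set the arms apart as far was not counted, for this or the other members. The means were 9.91 ± 0.63 and 8.04 ± 0.47 (SD, n = 12 each). The difference was 1.86 ± 0.21 log2 (SE), 3.64-fold, with a limma adjusted p of 1.62e-06, and it ranked 36 among 15866 probe sets by p.

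The other Slc2a4 probe set, 1388958_a_at, whose suffix marks a design shared by alternative transcripts of a gene, ran from 8.18 through 9.14 to 9.77 in treated rats and from 7.69 through 7.92 to 8.36 in controls. Again 11 of 12 treated rats exceeded every control, and again the lowest treated rat was rat 9. Its difference was 1.15 ± 0.15 log2, 2.22-fold (limma, adjusted p = 7.27e-06).

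Hk2 (1369006_at) ran from 6.88 through 7.35 to 7.81 in treated rats and from 6.59 through 6.74 to 7.04 in controls. Here 10 of 12 treated rats lay above the highest control, and all 12 lay above the control mean. The difference was 0.55 ± 0.09 log2, 1.47-fold (limma, adjusted p = 0.000103).

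Hk1 (1386929_at) moved the other way, from 8.57 through 8.94 to 9.13 in treated rats against 9.01 through 9.19 to 9.41 in controls. All 12 treated rats lay below the control mean, and 8 of them lay below the lowest control. The difference was -0.29 ± 0.06 log2, 1.22-fold lower (limma, adjusted p = 0.00212).

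Slc2a1 (1370848_at) spanned 8.22 through 8.81 to 9.02 in treated rats and 8.56 through 8.85 to 9.17 in controls, so the arms overlapped over most of their range. Its difference was -0.12 ± 0.09 log2, with a 95% interval from -0.30 to 0.06 and an adjusted p of 0.39 (limma). The interval leaves room for a fall of that size, and the test does not show that the transcript stayed the same.

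**Figure D1:**
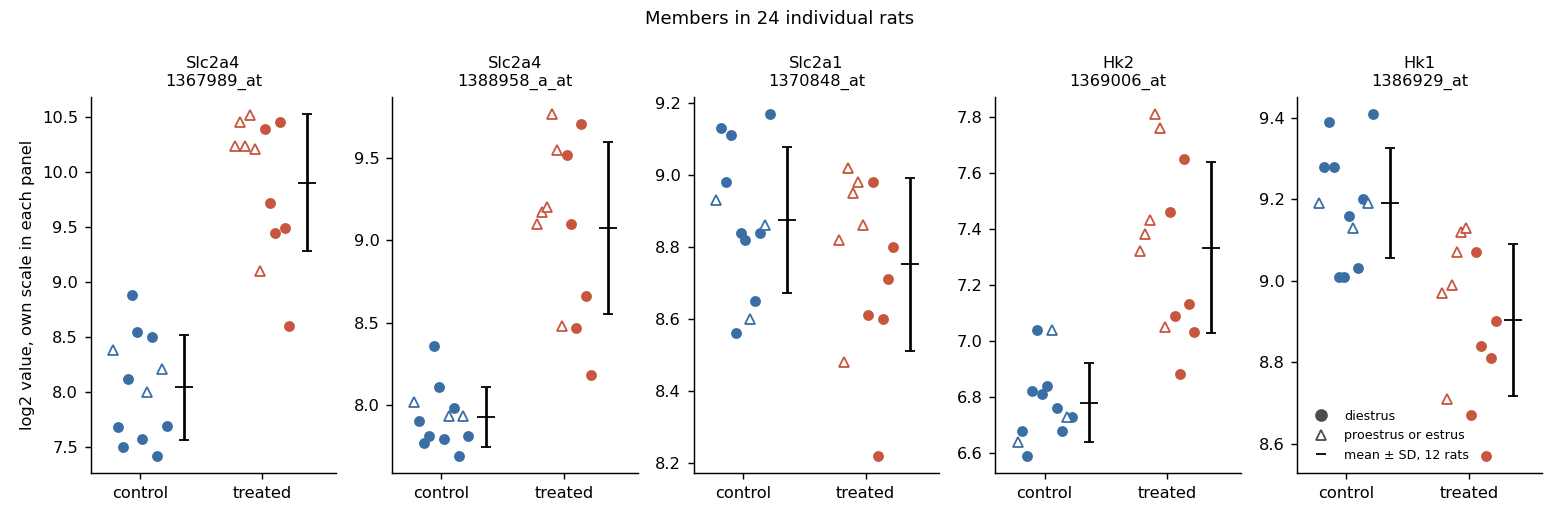
Log2 values of the 5 ordinary member probe sets in 12 control and 12 treated rats, each panel on its own scale, with filled circles for diestrus, open triangles for proestrus or estrus, and bars for the mean ± SD. Treated rats lie higher for both Slc2a4 probe sets and for Hk2 and lower for Hk1, and overlap the controls for Slc2a1.

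Marker lists of other cell types moved along with these results. Their counts stand beside 8.46% of all probe sets called higher and 9.59% called lower. The mean of 13 adipocyte markers was 10.68 in treated rats (10.28 to 11.06) and 10.35 in controls (10.03 to 10.86), and 7 of the 13 rose while 2, Cfd and Adrb3, fell. The mean of 13 luminal epithelial markers was 9.18 in treated rats (9.04 to 9.31) and 9.46 in controls (9.32 to 9.60), with 9 of 13 lower and no overlap between the arms. Of 9 basal markers 4 fell and 1 rose, and of 7 milk genes 3 fell. With the adipocyte mean as a covariate, Slc2a4 kept differences of 1.22 (adjusted p = 1.22e-05) and 0.78 (0.000553) on its probe sets and Hk2 kept 0.38 (0.00889), whereas Hk1 was at -0.14 (0.129) and Slc2a1 turned to 0.04 (0.834). With the luminal mean as a covariate, only 4 of all 15866 probe sets were called, against 2865, and none of the members was. Under it the Slc2a4 probe sets were 1.02 (adjusted p = 0.273) and 0.77 (0.28) higher, Hk2 0.36 (0.404) and Slc2a1 0.18 (0.621), and Hk1 was at 0.00 (0.998). Both covariates were added after the data were seen. The adipocyte markers moved unequally. Gpd1, Aqp7 and Lep rose by 1.17, 1.10 and 1.01 log2, Plin1, Car3, Cd36 and Acvr1c did not pass, and Cfd and Adrb3 were at -0.69 and -0.52. Whether either marker mean follows cell number or a response of the markers to treatment was not tested. In the second fit the covariate also separates the arms completely. These fits therefore do not measure how much cell composition contributed to the members' changes.

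Across rats within an arm, Slc2a4 followed the adipocyte mean, a relation looked at after the data were seen. Its r was 0.871 in controls (Spearman's rho 0.902, permutation tests, adjusted p = 0.0008 and 0.0017 over 20 relations) and 0.801 in treated rats (rho 0.758, adjusted p = 0.0107 and 0.0373). Without the 2 rats farthest from the median on the marker axis, r was 0.845 and 0.58. On 1388958_a_at r was 0.895 in controls (rho 0.954, adjusted p = 0.0029 and 0.0004), 0.761 without 2 rats, and 0.684 in treated rats (rho 0.637, adjusted p = 0.0638 and 0.116), 0.412 without 2. None of the other 16 relations with the marker means passed the correction. For Hk1 and the adipocyte mean r was -0.668 in controls and -0.616 in treated rats (rho -0.696 and -0.606, permutation tests, adjusted p = 0.0638 and 0.102 for r, 0.0734 and 0.135 for rho; r without 2 rats -0.738 and -0.661).

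The 2 Slc2a4 probe sets did not change by the same amount. Within a rat, 1367989_at minus 1388958_a_at was 0.83 ± 0.25 log2 in treated rats (0.42 to 1.29) and 0.12 ± 0.32 in controls (-0.27 to 0.52; SD, n = 12 each). The arms overlapped, and all 12 treated rats lay above the control mean. The changes differed by 0.71 log2 (permutation test, two-sided, p = 1e-05, the smallest that 100000 resamples can give), and by 0.67 in the rats in diestrus alone (exact permutation test, two-sided, p = 0.0024). Yet the probe sets ordered the rats alike, with r = 0.922 in treated and 0.901 in control rats (rho 0.877 and 0.947, permutation tests, adjusted p = 0.0002 each for r, 0.00373 and 0.001 for rho, over 20 relations) and 0.867 and 0.854 without the 2 rats farthest from the median. Which transcripts or parts of the gene each probe set reads was not analysed here.

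Changes of the genes were then compared within rats, 6 pairs in all, with 1367989_at standing for Slc2a4. Slc2a4 rose by 1.99 log2 more than Slc2a1, by 2.15 more than Hk1 and by 1.31 more than Hk2 (permutation tests, two-sided, adjusted p = 1.50e-05 each over the 6 pairs). On 1388958_a_at Slc2a4 rose by 1.15 in place of 1.86, so these gaps would be smaller with that probe set. The hexokinases differed by -0.84 for Hk1 minus Hk2 (adjusted p = 1.50e-05). Slc2a1 minus Hk2 changed by -0.67 (adjusted p = 0.000108). Slc2a1 minus Hk1 changed by 0.16, with 11 of 12 treated rats above the control mean (adjusted p = 0.0136). On these probe sets the fall of Hk1 thus exceeded the difference seen for Slc2a1. The Slc2a4 probe sets differed by 0.71 within 1 gene, so gaps of 0.67 or 0.16 between probe sets do not show that genes changed unequally. With 1388958_a_at at 1.15 and Hk2 at 0.55, the gap between Slc2a4 and Hk2 would also be under 0.71.

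Oestrous stage was examined in the same rats. Slc2a4 on 1367989_at averaged 10.13 ± 0.52 log2 in treated rats in proestrus or estrus (SD, n = 6), 9.68 ± 0.69 in treated rats in diestrus (n = 6), 8.20 ± 0.19 in controls in proestrus or estrus (n = 3) and 7.99 ± 0.54 in controls in diestrus (n = 9). In that order the stages of an arm differed by less than the larger of their SDs, and the step from treated to control was the larger one. With treatment in the model, proestrus or estrus minus diestrus was 0.34 ± 0.22 log2 for 1367989_at, 0.18 ± 0.16 for 1388958_a_at, 0.16 ± 0.09 for Hk2, 0.10 ± 0.07 for Hk1 and 0.07 ± 0.09 for Slc2a1 (limma, adjusted p = 0.999 each). Over all probe sets limma called 0, or 0%, for stage, with 581 at an unadjusted p under 0.05, and also 0 with an intensity trend and robust prior.

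Within diestrus, 4 of the 5 ordinary member probe sets were called, against 8.73% of all. Slc2a4 was 1.70 ± 0.29 and 1.03 ± 0.20 log2 higher (limma, adjusted p = 0.0026 and 0.00494), and Hk2 was 0.43 ± 0.10 higher (0.0136). Hk1 was -0.39 ± 0.08 (0.00799). Slc2a1 was at -0.25 ± 0.11, with a 95% interval from -0.48 to -0.01, and was not called (limma, unadjusted p = 0.0433, adjusted p = 0.211).

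Outside diestrus only 3 controls were available, and 2 of the 5 member probe sets were called, both of Slc2a4, against 1.48% of all. They were 1.93 ± 0.26 and 1.25 ± 0.22 log2 higher (limma, adjusted p = 0.0166 and 0.0293). Hk2 was 0.66 ± 0.16 higher without passing (0.073), Hk1 was at -0.17 ± 0.09 (0.481) and Slc2a1 at 0.06 ± 0.12 (0.959). These calls could be lost on leaving out a single rat. The differences themselves then stayed between 1.83 and 2.14 on 1367989_at and between 1.14 and 1.4 on 1388958_a_at. Without treated rat 2, treated rat 12 or control rat 3 the adjusted p of 1367989_at was 0.0514, 0.0532 and 0.116, at differences of 1.92, 1.91 and 1.83. For 1388958_a_at it rose to between 0.0592 and 0.15 when treated rat 2, 10 or 12 or control rat 3, 8 or 10 was left out. Without treated rat 3 Hk2 was called, at 0.74 (adjusted p = 0.0138).

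The difference between the stages in the treatment change was tested itself. The interaction was 0.24 ± 0.45 log2 for 1367989_at, 0.22 ± 0.33 for 1388958_a_at, 0.30 ± 0.18 for Slc2a1, 0.22 ± 0.13 for Hk1 and 0.22 ± 0.19 for Hk2, with an adjusted p of 1 for each (limma). Over all probe sets 0 were called, or 0%, with 322 at an unadjusted p under 0.05, and also 0 with a trend and robust prior. For Hk1 the 95% interval of the interaction ran from -0.06 to 0.49, which holds an equal fall in both stages as well as a fall in diestrus alone.

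Pools were mixed from targets of these same animals and are no independent check of the biology. In pools of 2, 3 of the 5 ordinary member probe sets were called, against 8.82% of all. Slc2a4 on 1367989_at ran from 9.18 through 10.07 to 10.51 in 6 treated pools and from 7.91 through 8.21 to 8.46 in 6 control pools. Its difference was 1.76 ± 0.20 log2 (limma, adjusted p = 0.000189). On 1388958_a_at the difference was 1.29 ± 0.15 (0.000167), and for Hk2 it was 0.64 ± 0.10 (0.00135). Hk1 was at -0.27 ± 0.09 and missed the threshold (0.0656). It passed after quantile normalization (-0.28, adjusted p = 0.0371) and without the pool of treated rats 12 and 14 or that of treated rats 2 and 3 (-0.31 each, 0.0486 and 0.0447). Slc2a1 was at -0.10 ± 0.07 (0.484).

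In pools of 3, 4 of the 5 were called, against 6.24% of all. The treated pools gave 9.23, 9.81, 10.36 and 10.45 log2 for Slc2a4 on 1367989_at and the control pools 8.07, 8.29, 8.40 and 8.53. The difference was 1.64 ± 0.22 (limma, adjusted p = 0.00169), with 1.17 ± 0.17 on 1388958_a_at (0.00224). For Hk2 the treated pools gave 6.92, 7.16, 7.53 and 7.59 and the control pools 6.62, 6.81, 6.81 and 6.89. This difference of 0.52 ± 0.13 (0.041) was lost on leaving out any pool except that of treated rats 6, 8 and 9, with adjusted p from 0.0541 to 0.125. For Hk1 the treated pools gave 8.71, 8.92, 9.08 and 9.13 and the control pools 9.30, 9.31, 9.45 and 9.46. The difference of -0.42 ± 0.09 (0.0203) was lost without the pool of control rats 10, 11 and 13 or that of control rats 6, 8 and 9 (-0.39 and -0.40, adjusted p = 0.0608 and 0.0607). Slc2a1 was at -0.07 ± 0.09 (0.767).

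The pools of 12 are 1 mixture per arm, so their 4 arrays measure only technical spread and no test was made. Slc2a4 read 9.99, 9.99, 10.04 and 10.22 log2 in the treated pool and 8.10, 8.27, 8.28 and 8.30 in the control pool on 1367989_at. The differences were 1.82 and 1.21 on the Slc2a4 probe sets, 0.43 for Hk2, -0.16 for Slc2a1 and -0.17 for Hk1. Without technical replicate 3 of the control pool, the array that stood apart, Hk1 differed by -0.24 and Slc2a4 by 1.78 and 1.28.

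**Figure D2:**
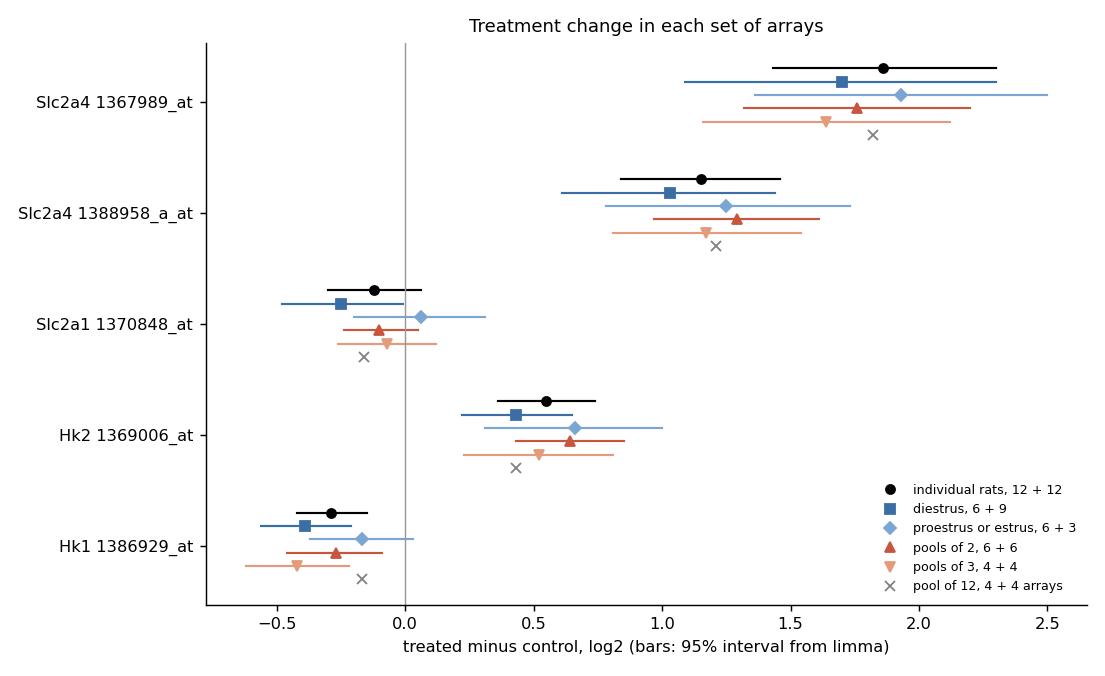
Treated minus control on the log2 scale for each ordinary member probe set in individual rats, in each stage group, in pools of 2 and 3 (points with 95% intervals) and in the pools of 12 (crosses, no interval), with the number of treated and control arrays in the key. Slc2a4 and Hk2 lie above 0 and Hk1 below 0 in all 6 sets of arrays, whereas Slc2a1 lies between -0.25 and 0.06.

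A pool's value was compared with the log2 of the mean of its rats' values on the linear scale. The median gap per probe set and pool size lay between -0.06 and 0.16 for the ordinary member probe sets. Single pools deviated more, and the widest gap was -0.44 for Hk2 in 1 of 12 pools of 2.

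Rats varied more than repeat arrays did. The pooled SD between rats within an arm was 0.556 log2 for Slc2a4 on 1367989_at, against 0.0916 between arrays of the same rat or the same pool of 12, a ratio of 6.06. The ratio was 3.83 for 1388958_a_at, 3.07 for Slc2a1, 1.72 for Hk2 and 1.64 for Hk1. Without the control array that stood apart, the SD between repeat arrays of Hk1 was 0.0511 in place of 0.0993. Treated rat 3, among the lowest treated rats for Slc2a4, read 9.06, 9.10 and 9.21 on its 3 arrays, so that its position repeated.

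The SD between rats was 0.304 in treated and 0.142 in control rats for Hk2, and 0.525 and 0.181 for Slc2a4 on 1388958_a_at. Neither difference in spread passed the correction over 8 probe sets (permutation tests of absolute deviations from the median, two-sided, adjusted p = 0.0573 each), though both did after quantile normalization (0.0297 each). For 1367989_at the SD was 0.626 and 0.475 (adjusted p = 0.898).

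Members were related to each other across rats within each arm, 20 relations in all, of which 7 passed the correction. Slc2a1 and Hk1 rose and fell together from rat to rat, with r = 0.704 in treated rats and 0.821 in controls (rho 0.791 and 0.871, permutation tests, adjusted p = 0.0285 and 0.009 for r, 0.0113 and 0.00373 for rho). Without the 2 rats farthest from the median these were 0.896 and 0.705. Slc2a4 and Hk2 correlated at 0.80 in treated rats (rho 0.832, permutation tests, adjusted p = 0.00905 and 0.00608; 0.839 without 2 rats). In controls the same pair had r = 0.473 (rho 0.422, adjusted p = 0.165 and 0.248), which was 0.152 without 2 rats. Slc2a4 and Hk1 ran against each other in controls, at -0.734 (rho -0.692, permutation tests, adjusted p = 0.0247 and 0.0445; -0.746 without 2 rats), and had r = -0.255 in treated rats (rho -0.323, adjusted p = 0.472 and 0.374; -0.148 without 2 rats). Whether the arms differ in these correlations was not tested.

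**Figure D3:**
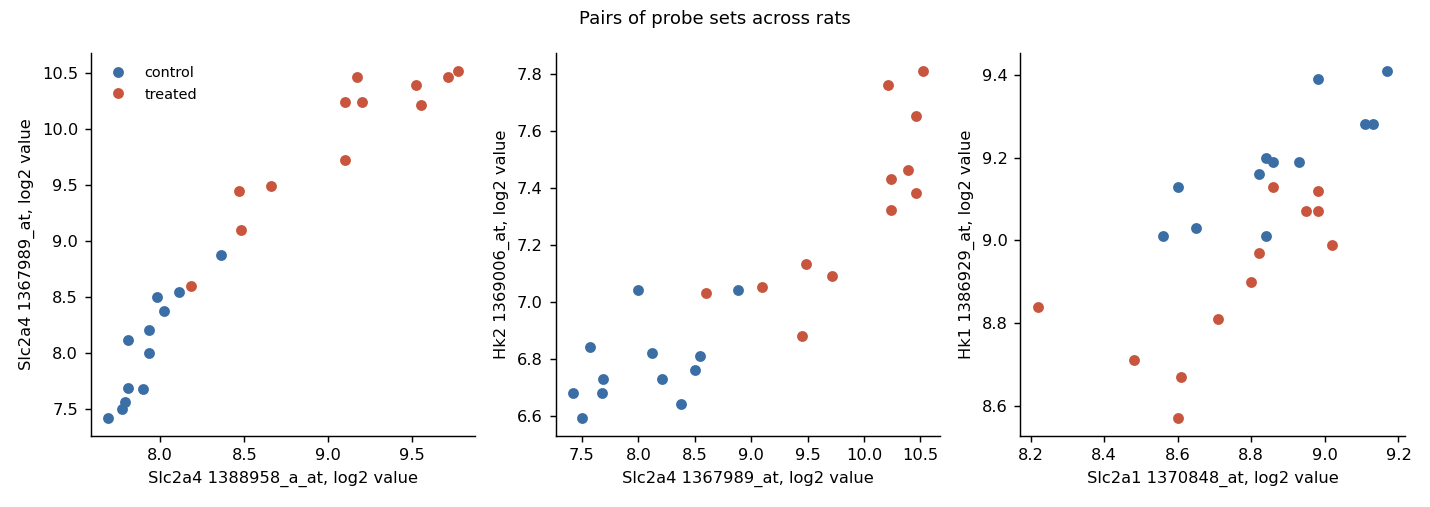
Each point is 1 rat, control in blue and treated in red, with log2 values of the Slc2a4 probe sets against each other, of Slc2a4 against Hk2, and of Slc2a1 against Hk1. The Slc2a4 probe sets order the rats alike within each arm (r = 0.922 and 0.901), and for Slc2a1 and Hk1 the treated rats lie on a parallel band at lower Hk1.

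The genes most like each member were taken as the 4 with the highest r of deviations from the arm mean over the 24 rats, a description that shares arrays and tissue. For Slc2a4 these were Pc, pyruvate carboxylase (r = 0.948), Hsd17b12, a fatty acid elongation enzyme (0.948), Ilvbl (0.946) and Chchd10, a mitochondrial protein (0.944). For Slc2a1 they were Rap1gap (0.81), S100a16 (0.787), Fzd6, a Wnt receptor (0.776), and Nectin1, an adhesion molecule (0.776). For Hk1 they were Flna, an actin cross-linker (0.837), Papss1, which makes the sulphate donor (0.827), C5h1orf210 (0.817) and Krt19, a luminal keratin (0.801). For Hk2 the nearest was Slc2a4 itself on 1388958_a_at (0.856), then Gpam, the first acyltransferase of glycerolipid synthesis (0.803), Higd1a on a dimmer probe set that rose by 0.56 (0.802) and Slc2a5 (0.787). Within the arms, r with Hk2 was 0.89 in treated and 0.233 in control rats for Gpam, 0.892 and 0.243 for Slc2a5, 0.912 and 0.543 for Slc2a4 and 0.825 and 0.75 for Higd1a. For the other members' neighbours it was 0.636 or more in either arm.

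Hk1 was also read by 3 control probe sets, which Affymetrix placed along a hexokinase transcript to compare its 5', middle and 3' parts. The 3' set ran from 5.44 through 5.90 to 6.38 log2 in treated rats and from 5.84 through 6.06 to 6.34 in controls. The arms overlapped, with both the lowest and the highest rat in the treated arm. With control probe sets included in the fit, none of the 3 was called at an adjusted p under 0.05, against 18.0% of 15923. The differences were -0.16 ± 0.07 for the 3' set (limma, unadjusted p = 0.0349, adjusted p = 0.134), -0.06 ± 0.04 for the middle set (0.344) and -0.06 ± 0.03 for the 5' set (0.247). For the 3' set 10 of 12 treated rats lay below the control mean, as they did for the 5' set, and 8 did for the middle set. Within diestrus the 3' set was -0.24 ± 0.07 and passed (adjusted p = 0.036, against 8.72% of 15923 called), while the middle and 5' sets did not (0.349 and 0.142). Outside diestrus the 3' set was at -0.04 ± 0.16 (adjusted p = 0.983), and its interaction of treatment and stage was 0.19 ± 0.16 (adjusted p = 1), so a difference between the stages was not shown.

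The 5' set was dim, at 4.96 ± 0.09 log2 in treated rats and 5.02 ± 0.06 in controls (SD, n = 12 each), the 5.29th and 6.18th percentile of all probe sets. A difference against it therefore follows mainly the 3' set and is no reading of transcript integrity here. The 3' minus 5' signal was 0.94 ± 0.15 log2 in treated rats (0.63 to 1.23) and 1.04 ± 0.11 in controls (0.90 to 1.26), a difference of -0.10 that did not pass (permutation test, two-sided, p = 0.0739). The 3' minus middle signal differed by -0.10 as well (p = 0.101), and the ordinary Hk1 probe set minus the 3' control set differed by -0.12, which did not pass either (p = 0.0651, both by permutation test, two-sided, and both chosen after the data were seen). The middle set was brighter than the 3' and 5' sets, at 7.39 ± 0.09 log2 in treated rats and 7.46 ± 0.11 in controls. Its difference of -0.06 had a 95% interval from -0.15 to 0.02, against -0.42 to -0.15 for the ordinary Hk1 probe set. Whether the changes of the middle set and the ordinary Hk1 probe set differ was not tested. Across treated rats the ordinary Hk1 probe set correlated with the 3' set at r = 0.702 (rho 0.844, permutation tests, adjusted p = 0.0247 and 0.0054; 0.752 without 2 rats). After quantile normalization r was 0.514 (adjusted p = 0.14). In controls r was 0.396 (rho 0.421, adjusted p = 0.257 and 0.248; 0.31 without 2 rats).

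**Figure D4:**
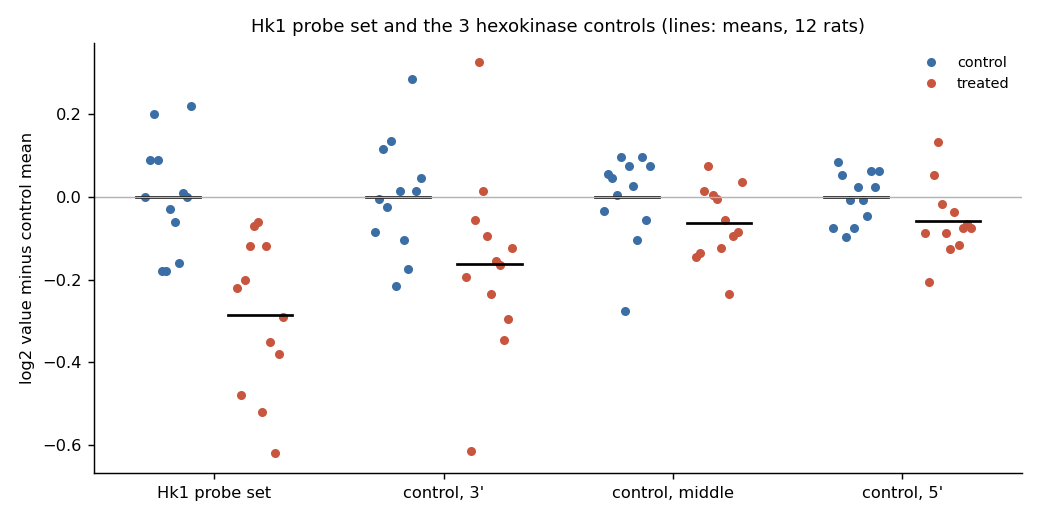
Log2 values minus the control mean of each probe set, for the ordinary Hk1 probe set and the 3', middle and 5' hexokinase controls, with a point per rat and lines at the means of 12 control (blue) and 12 treated (red) rats. The ordinary Hk1 probe set shows the larger drop, -0.29 on average, and the control sets lie between -0.16 and -0.06.

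Other genes of glucose uptake and trapping were read from a list of 23, of which 15 were measured, 11 besides the members. Of these 11, 5 rose and the other 6 did not pass the test, beside 8.46% of all probe sets called higher. Slc37a4, the carrier that brings glucose 6-phosphate into the endoplasmic reticulum, rose by 0.48 ± 0.05 log2 (limma, adjusted p = 3.67e-07), and G6pc3, a phosphatase that acts on it there, by 0.20 ± 0.04 (0.00134). Adpgk, a glucokinase that uses ADP, rose by 0.24 ± 0.03 (2.16e-05). The remaining pair carry other sugars or polyols, Slc2a5 (fructose) at 0.51 ± 0.08 (3.36e-05) and Slc2a13 (myo-inositol) at 0.46 ± 0.10 (0.00157). Slc2a2, Slc2a3 and Slc2a8, other glucose carriers, were at 0.10, 0.06 and 0.01, Slc5a1 and Slc5a2, the sodium-coupled ones, at -0.01 each, and Gckr, the glucokinase regulator, at 0.01. The median change of the 11 was 0.10, against -0.00 over all probe sets.

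Among 8 genes of the fates of glucose and its 6-phosphate, 5 rose and 3 did not pass, with a median of 0.26. Over all probe sets 8.46% were called higher. Akr1b1, aldose reductase, which turns free glucose into sorbitol, rose from 10.11 ± 0.16 to 11.16 ± 0.30 log2 (difference 1.05 ± 0.09, limma, adjusted p = 8.26e-08), and Sord, the next enzyme of that route, by 0.29 ± 0.08 (0.0101). Gpi, which leads into glycolysis, rose by 0.37 ± 0.08 (0.00103) and Pgm1, which leads toward glycogen, by 0.29 ± 0.06 (0.00099). None of the 3 measured Vdac genes, the mitochondrial channels on which hexokinases dock, passed the test. Vdac1 was at 0.13 ± 0.05 (adjusted p = 0.0896), Vdac3 at 0.10 ± 0.05 (0.143) and Vdac2 at -0.01 ± 0.03 (0.872).

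**Figure D5:**
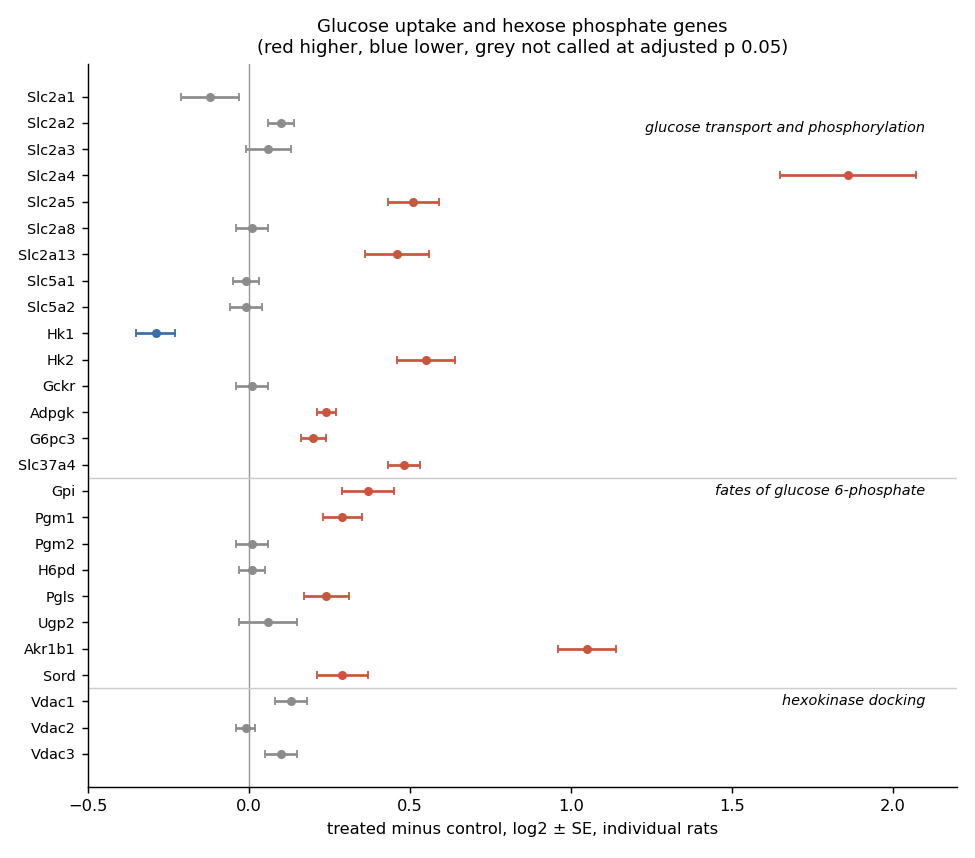
Treated minus control (log2 ± SE, individual rats) for 15 measured genes of glucose transport and phosphorylation, 8 genes of the fates of glucose 6-phosphate and 3 hexokinase docking genes, in red where higher, blue where lower and grey where not called. Slc2a4 lies farthest right at 1.86, followed by Akr1b1 at 1.05, and Hk1 is the one gene called lower.

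Of 29 measured genes of the vesicle traffic of Slc2a4, 6 rose, 3 fell and 20 did not pass, with a median of -0.03. Over all probe sets 8.46% were called higher and 9.59% lower, so the 3 falls were near the share of the whole array. Ehd1, an endosomal recycling protein, rose by 0.39 ± 0.05 log2 (limma, adjusted p = 1.08e-05) and Vamp3, a vesicle SNARE, by 0.22 ± 0.03 (4.81e-05). Vamp8, another vesicle SNARE, was at -0.28 ± 0.05 (0.000561) and Cbl, a ubiquitin ligase and adaptor, at -0.19 ± 0.04 (0.000636). Of 13 measured genes listed as regulators of Slc2a4 transcription, a role not tested here, 4 rose, 1 fell and 8 did not pass, with a median of -0.00. The 1 fall was again near the share called lower over all probe sets. Mlxipl, the glucose-responsive factor ChREBP, rose by 0.89 ± 0.12 (1.42e-05), Pparg by 0.76 ± 0.14 (0.000349) and Cebpa by 0.54 ± 0.15 (0.0135), the latter pair being adipocyte regulators that partner or act beside one another. Sp1, a factor that binds GC boxes, was at -0.20 ± 0.05 (0.00312).

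Slc2a1 and Hk2 are known targets of the hypoxia response. Of 23 measured genes of that response 10 rose, 3 fell and 10 did not pass, with a median of 0.14. Over all probe sets 8.46% were called higher and 9.59% lower. Pdk1, which restrains pyruvate oxidation, rose by 1.42 ± 0.19 log2 (limma, adjusted p = 7.67e-06), Higd1a on its brightest probe set by 0.88 ± 0.09 (5.54e-07), Aldoa, a glycolytic enzyme, by 0.78 ± 0.09 (2.31e-06) and Egln1, an oxygen-sensing hydroxylase, by 0.30 ± 0.04 (3.04e-05). The 3 that fell were Ndrg1 at -0.61 ± 0.12, Kdm3a at -0.31 ± 0.10 and Mxi1 at -0.30 ± 0.08 (limma, adjusted p = 0.000885, 0.0386 and 0.0121). Slc2a1 itself, at -0.12, was not called. Whether a hypoxia response took part in the members' changes was not tested.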

How the data were processed

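Per the labels, RNA of each gland was labelled singly and pools were mixed from labelled targets. The authors deposited 1 log2 value per probe set and array. The log2 scale was inferred from the range, 4.12 to 14.08. The sources used here name no software or normalization. Values were used as deposited, without a filter. Array medians lay between 7.40 and 7.48. The number of arrays limits the precision.

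Symbols came from the platform's annotation, updated by Entrez ID through RefSeq (GRCr8) for 12748 probe sets; 12783 had 1 symbol, 312 several and 2771 were unnamed. The 57 control probe sets were left out except where stated. A listed gene was read by its brightest probe set.

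Tests used limma 3.58.1 (R 4.3.3; lmFit, eBayes) with Benjamini-Hochberg adjustment over all probe sets, and permutation tests of 100000 resamples, or exact ones, for single values (Python 3.11.15, numpy 2.4.6, scipy 1.17.1). Fits were tested on simulated data. Alternatives covered normalization, centring, a dim filter, prior, weights, covariates, a block, a rank-sum test, the threshold and leaving out arrays. Named genes were all members, the measured genes of glucose transport and phosphorylation, and up to 4 with the smallest p of each other list. The hypoxia genes that fell, the 4 nearest genes of each member, and markers were named as well. Members and lists were chosen with earlier results of these data known. The later 3 arrays of either pool of 12 carry an individual rat's source label; title and description were followed. Marker lists not described with the results were brown adipocyte, endothelial, erythrocyte, macrophage, nerve and fibroblast, given at the end.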

Additional observations from a re-analysis of the deposited data

Results flagged for a closer look

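In groups of 4 to 10 arrays, the 8 member probe sets were searched for an array far from the others, 72 groups in all, and 5 were found; chance gives about 1 in 20. Technical replicate 3 of the control pool of 12 was far below the other arrays of that pool for Hk1, at 8.93 log2 against 9.24 to 9.26, and for Slc2a4 on 1367989_at, at 8.10 against 8.27 to 8.30. Treated rat 3 was far below the other treated rats in proestrus or estrus for Slc2a4 on 1367989_at, at 9.10 against 10.21 to 10.52, and without it the difference outside diestrus was 2.14 (limma, adjusted p = 1.91e-05) in place of 1.93. Treated rat 11 was low for Slc2a1 among the same rats, at 8.48 against 8.82 to 9.02, and without it the difference was 0.13 (limma, adjusted p = 0.673). The pool of control rats 12, 14 and 15 was high for Slc2a4 on 1388958_a_at, at 8.13 against 7.94 to 7.97, and without it the difference in pools of 3 was 1.22.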

How the results depend on the processing

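In individual rats the 4 called member probe sets kept direction and call under every alternative listed with the methods and on leaving out any rat. The exceptions were the covariates added after the data were seen, described with the results: with the luminal mean Slc2a4 was 1.02 and 0.77, Hk2 0.36, Hk1 0.00 and Slc2a1 0.18, with 4 probe sets called over the array, and with the adipocyte mean Hk1 was -0.14 and Slc2a1 0.04. The count of 2865 called was 1733 at a threshold of 0.01. With the rat number as a replicate block over 10 shared numbers, Slc2a4 differed by 1.82 and 1.05, Hk2 by 0.52, Slc2a1 by -0.07 and Hk1 by -0.24 (limma, adjusted p = 0.0322), and 2535 were called, against 2589 in the same rats without it (an alternative added later). The correlation of deviations of same-numbered rats ran from -0.389 to 0.358, with a median of 0.117, and 5 of 10 pairs exceeded 0.1. Of 10 treated rats 1 correlated best with its own number. Such correlations cannot settle whether the numbers pair the rats.

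Leaving out 1 array, 818 to 1602 probe sets were called within diestrus (1385 in all), 0 to 583 outside it (235), 0 to 1 for stage and 503 to 1020 in pools of 3 (990). The low ones were without treated rat 7 (818) or 4 (913), without treated rat 12 or control rat 3 (0 each), treated rat 2 (11), control rat 10 (24), treated rat 10 (37), 14 (45) or 11 (100) or control rat 8 (118, with 108 higher and 10 lower against 190 and 45), and without the pools of treated rats 12, 14 and 7 (503), control rats 6, 8 and 9 (644) or 2, 3 and 5 (650); treated rat 3 gave 583. Centred on the array median, 113 were called outside diestrus, and in pools of 3 the calls split into 592 higher and 300 lower in place of 518 and 472. Outside diestrus Slc2a1 ran from -0.04 (without control rat 3) to 0.13 on leaving out a rat. After quantile normalization r of Slc2a4 and Slc2a1 in treated rats was -0.0207 in place of 0.0407, and the treated minus control spread of the middle hexokinase control was -0.01. Between pools of 12 that control differed by -0.06 to 0.00 on leaving out an array, the latter without control technical replicate 3. Where no reason is given, the cause was not tested.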

Other observations

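Marker lists of the remaining cell types gave these counts in individual rats (limma, adjusted p under 0.05). Over all probe sets 8.46% were called higher and 9.59% lower. Of 8 macrophage and leukocyte markers 3 rose, Csf1r by 0.30 ± 0.08 log2 among them, and 1 fell, Cd14, at -0.76 ± 0.10. Of 6 nerve markers S100b, which adipocytes also express, rose by 1.15 ± 0.12 and Sox10 was at -0.25 ± 0.07. Of 7 fibroblast markers Thy1 rose by 0.68 ± 0.18, and of 9 endothelial markers Vwf was at -0.28 ± 0.07. None of 6 brown adipocyte and 4 erythrocyte markers passed the test, with Ucp1 at -0.02 ± 0.04 and Hbb at 0.03 ± 0.24.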
